A study of Mus musculus with 8 samples.

Results

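The 40 genes examined here drive a cell through its division cycle. They were chosen by name, in 3 groups: 10 regulators of the passage out of G1 into S phase (G1/S), 13 genes of DNA replication and 17 genes of the passage through G2 into mitosis (G2/M). A probe set was found by Entrez gene ID for 39 of the 40, among 21212 probe sets on the arrays, and Pcna, the sliding clamp of the replication fork, is not analysed here. RNA came from the gastrocnemius and plantaris muscles of individually housed 7-week-old female wild type C57BL/6J mice. One group of 4 mice had its hind limbs lifted off the cage floor for 5 days (hind limb unloaded, HU), and the other group of 4 mice bore weight on its hind limbs throughout (weight bearing, WB). Each array held an independent RNA sample with an RNA integrity number of at least 8.0, and whole muscle was used, so every cell type of the tissue contributed. The values are log2 expression values as the authors normalized them together over the 8 arrays.

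In dividing cells, cyclins D1 to D3 bind the kinases Cdk4 and Cdk6 and begin the inactivation of the retinoblastoma protein and its relatives, which frees the E2F factors. E2F factors switch on genes for the licensing of replication origins and for the supply of deoxynucleotides. A later wave of genes, for cyclin B, the mitotic kinases and the spindle, is held off by the DREAM complex and switched on by the B-Myb and FoxM1 factors. Muscle fibres themselves are post-mitotic, and the dividing cells of adult muscle are few and lie mostly between the fibres.

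The array medians lay between 6.28 and 6.33. Arrays of the same group correlated with r from 0.996 to 0.997 over all probe sets and arrays of different groups with r from 0.992 to 0.994. Of the variance, 52.2% lay on the leading principal component. The 10 muscle fibre markers averaged between 12.64 and 12.69 in HU arrays and between 12.74 and 12.80 in WB arrays. The labelled tissue was thus borne out. In the limma test used for all genes, at an adjusted p under 0.05, 4 of these markers were lower and 0 higher. Of all probe sets 11.0% were lower and 12.8% higher. The 1290 olfactory and vomeronasal receptor probe sets, for chemosensory genes, served as a floor and had a median level of 3.36 and a 95th percentile of 5.17. Of the 39 genes, 8 had a mean below that percentile (Cdc6, Top2a, Ccna2, Cdk1, Bub1, Birc5, Kif11 and Prc1), which describes how dim they were and is no test of expression.

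Unloading lowered 8 of the 39 genes and raised 1, tested with limma and Benjamini-Hochberg adjustment over all probe sets at an adjusted p under 0.05. The 8 were the 3 D-type cyclins Ccnd1, Ccnd2 and Ccnd3, the replication genes Mcm2 and Rrm1, and the G2/M genes Ccnb2, Aurka and Cenpa. The 1 was the spindle checkpoint gene Bub1b, of the G2/M group. These are 20.5% lower and 2.56% higher, where 11.0% of all probe sets were called lower and 12.8% higher. The median log2 change (HU minus WB) of the 39 genes was -0.11, against 0.04 over all probe sets. At an unadjusted p under 0.05, 11 were lower and 4 higher, where 3262 and 4669 of all 21212 probe sets were so. A stand-in for the methods' test was made gene by gene, with unequal variances and without sharing variance between genes. After the same adjustment it called Ccnd1, Ccnd2, Mcm2 and Aurka and not the other 5. The authors' own procedure was not rerun, so whether it would call those 5 was not tested. All HU arrays lay below all WB arrays in 7 of the 39 genes (17.9%) and above them in 4 (10.3%), where 12.0% and 15.5% of all probe sets did so. Less RNA per cell and fewer cells of a type cannot be told apart in whole muscle.

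**Figure D1:**
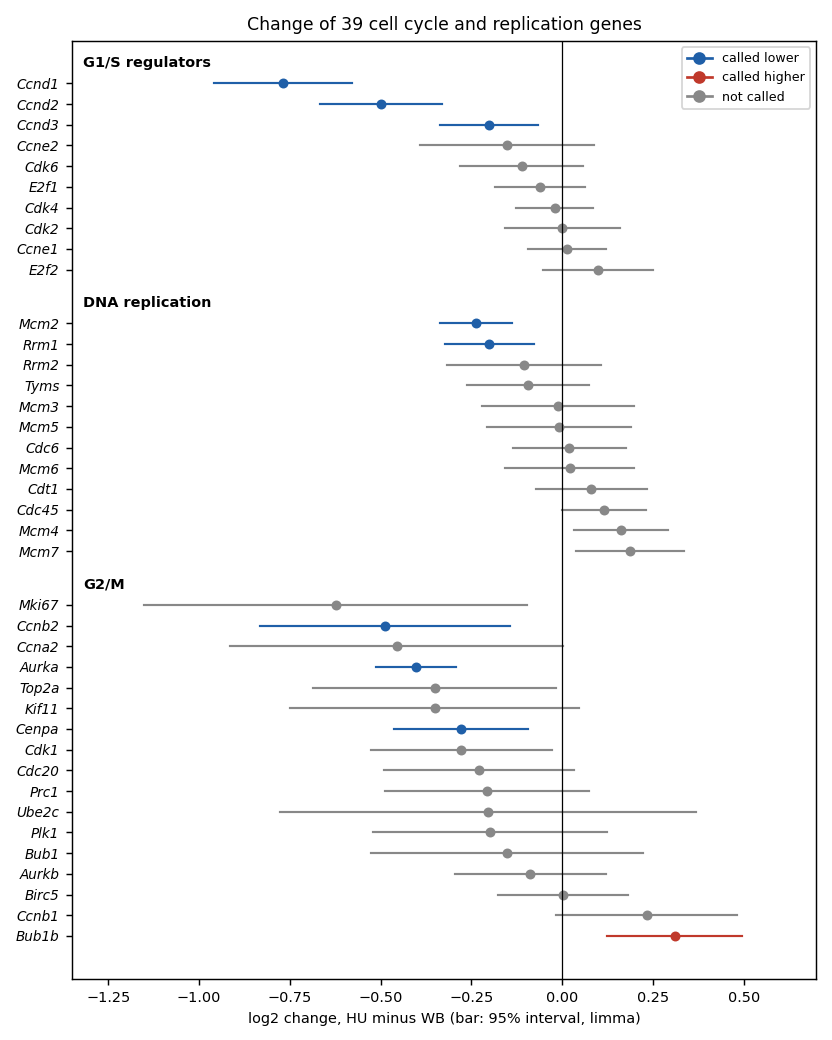
Log2 change (HU minus WB, x axis) of each of the 39 measured genes with its 95% interval from limma, in 3 groups ordered from the lowest change to the highest. Blue marks the 8 genes called lower, red the 1 called higher and grey the 30 not called. The widest interval is that of Ube2c, from -0.78 to 0.37, and that of Mki67 runs from -1.15 to -0.10.

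The D-type cyclins, which couple growth signals to the cycle, made up every call among the G1/S regulators. Ccnd1, cyclin D1, had log2 values of 6.31, 6.22, 6.67 and 6.43 in HU muscle and of 7.20, 7.21, 7.18 and 7.13 in WB muscle. The WB arrays lay close together, and every HU array was well below them. Ccnd1 was thus 1.70-fold lower in HU muscle (log2 change -0.77, 95% interval -0.96 to -0.58, limma adjusted p = 0.000229), the largest change of the 39 genes. Ccnd2, cyclin D2, had 8.12, 8.32, 8.20 and 8.36 in HU muscle and 8.69, 8.83, 8.60 and 8.87 in WB muscle. The groups did not overlap, and Ccnd2 was 1.41-fold lower in HU muscle (log2 change -0.50, -0.67 to -0.33, adjusted p = 0.00127).

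Ccnd3, cyclin D3, had 7.06, 7.09, 7.24 and 7.25 in HU muscle and 7.43, 7.34, 7.28 and 7.39 in WB muscle. The highest HU array was just below the lowest WB array. Its fall was 1.15-fold (log2 change -0.20, adjusted p = 0.0357), and it was not called without HU replicate 1 (0.0755) or 2 (0.0946), or without WB replicate 1 (0.0916), 2 (0.0642) or 4 (0.0753).

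The other 7 G1/S regulators of the list, kinases, E-type cyclins and E2F factors, were not called. Cdk4, which with Cdk6 is the partner of the D-type cyclins, averaged 9.89 ± 0.04 in HU muscle and 9.91 ± 0.05 in WB muscle (SD, n = 4 arrays each), and the interval of its change ran from -0.13 to 0.09. Cdk6 changed by -0.11 (-0.28 to 0.06) and Cdk2, the partner of cyclin E, by 0.00 (-0.16 to 0.16). The cyclins E, Ccne1 and Ccne2, changed by 0.01 (-0.09 to 0.12) and -0.15 (-0.39 to 0.09). E2f1, an activating E2F factor, had 5.11, 5.27, 5.26 and 5.18 in HU muscle and 5.20, 5.36, 5.24 and 5.27 in WB muscle. Its groups overlapped, with a change of -0.06 (-0.18 to 0.06), and that of E2f2 was 0.10 (-0.05 to 0.25). Of the 10 G1/S regulators, then, 3 were lower (30%, against 11.0% of all probe sets), 0 were higher (against 12.8%) and 7 were not called. Their median log2 change was -0.09. No regulator was higher at an unadjusted p under 0.05 either, where 4669 of all 21212 probe sets were.

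The 12 measured replication genes moved in both directions. Mcm2, a subunit of the helicase that unwinds DNA at the fork, had 6.71, 6.69, 6.68 and 6.64 in HU muscle and 6.96, 6.93, 6.94 and 6.86 in WB muscle. Both groups were tight and did not overlap, with a 1.18-fold fall (log2 change -0.24, -0.34 to -0.14, limma adjusted p = 0.00415). Rrm1, the large subunit of ribonucleotide reductase, which makes deoxynucleotides, had 8.62, 8.47, 8.55 and 8.43 in HU muscle and 8.72, 8.69, 8.79 and 8.68 in WB muscle. The groups were again apart, and Rrm1 fell 1.15-fold (log2 change -0.20, adjusted p = 0.0258). It was not called without HU replicate 2 (0.0684) or 4 (0.0707), or without WB replicate 1 (0.0575) or 3 (0.0633).

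The other subunits of the same helicase did not follow Mcm2. Mcm4 averaged 6.35 ± 0.11 in HU muscle and 6.19 ± 0.01 in WB muscle (SD, n = 4 each), and Mcm7 averaged 7.04 ± 0.12 in HU muscle and 6.85 ± 0.07 in WB muscle. In both genes every HU array was above every WB array. Neither passed the threshold, with log2 changes of 0.16 (limma adjusted p = 0.0688) and 0.19 (0.0682), although Mcm4 did so without HU replicate 4 (0.0481). Mcm3, Mcm5 and Mcm6 changed by -0.01, -0.01 and 0.02, with intervals that all lay between -0.22 and 0.20. Mcm2 to Mcm7 form 1 ring with 1 copy of each subunit, so the values above are unequal changes in the mRNAs of a single complex. A difference between the subunits' changes was not tested.

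Of the genes that load and fire the helicase, Cdc45 changed by 0.12 (limma adjusted p = 0.132), with every HU array above every WB array. Cdt1 and Cdc6, the loading factors, changed by 0.08 and 0.02. Rrm2, the small subunit of ribonucleotide reductase whose level follows S phase, changed by -0.11 (-0.32 to 0.11), and Tyms, thymidylate synthase, by -0.09 (-0.26 to 0.07). In all, 2 replication genes were lower (16.7%, against 11.0% of all probe sets), 0 were higher (against 12.8%) and 10 were not called. Their median log2 change was 0.01. At an unadjusted p under 0.05 there were 2 lower and 3 higher, where 3262 and 4669 of all 21212 probe sets were so.

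Mitotic genes carry short promoter elements that differ from those of replication genes. The cell cycle genes homology region (CHR), TTTGAA, is a site of the DREAM and B-Myb complexes, and CCAAT is the site of the factor NF-Y. The E2F motif was searched as TTTCGCGC, TTTGGCGC and TTTCCCGC. All were looked for on both strands in RefSeq promoters of GRCm38.p6, each running from 250 bases before to 50 bases after an annotated start, and no motif contains another. Promoters were listed for 33 of the 39 genes, 37 in all. Those of the called genes that the table holds, Ccnd3 apart, and that of Mki67 are printed here because the changes described turn on these genes. Capitals mark the motifs, in the direction of the gene:
Aurka, chr2:172370521-172370820, minus strand: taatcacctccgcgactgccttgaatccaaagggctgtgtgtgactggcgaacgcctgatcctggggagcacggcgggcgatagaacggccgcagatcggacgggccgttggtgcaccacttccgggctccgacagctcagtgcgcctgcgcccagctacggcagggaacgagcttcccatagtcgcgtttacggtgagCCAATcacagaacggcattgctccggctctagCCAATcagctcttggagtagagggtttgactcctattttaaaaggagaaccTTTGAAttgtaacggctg
Ccnb2, chr9:70421505-70421804, minus strand: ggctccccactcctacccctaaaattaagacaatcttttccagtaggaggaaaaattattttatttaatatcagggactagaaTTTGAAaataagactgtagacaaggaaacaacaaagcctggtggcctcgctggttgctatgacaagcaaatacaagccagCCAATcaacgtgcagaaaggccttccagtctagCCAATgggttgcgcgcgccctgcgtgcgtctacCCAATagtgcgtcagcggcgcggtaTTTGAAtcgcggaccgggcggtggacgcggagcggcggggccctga
Cenpa, chr5:30666636-30666935, plus strand: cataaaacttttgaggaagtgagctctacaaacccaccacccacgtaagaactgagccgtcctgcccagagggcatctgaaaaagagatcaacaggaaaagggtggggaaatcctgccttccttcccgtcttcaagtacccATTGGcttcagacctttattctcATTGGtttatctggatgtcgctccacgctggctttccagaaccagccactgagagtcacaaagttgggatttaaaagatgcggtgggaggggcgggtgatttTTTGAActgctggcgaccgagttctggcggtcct
Bub1b, chr2:118597961-118598260, plus strand: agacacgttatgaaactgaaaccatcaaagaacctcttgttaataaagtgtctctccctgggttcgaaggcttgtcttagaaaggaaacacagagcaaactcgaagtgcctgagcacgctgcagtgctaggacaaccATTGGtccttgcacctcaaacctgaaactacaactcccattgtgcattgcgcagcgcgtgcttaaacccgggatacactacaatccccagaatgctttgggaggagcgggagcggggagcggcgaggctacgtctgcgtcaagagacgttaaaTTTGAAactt
Mki67, chr7:135716330-135716629, minus strand: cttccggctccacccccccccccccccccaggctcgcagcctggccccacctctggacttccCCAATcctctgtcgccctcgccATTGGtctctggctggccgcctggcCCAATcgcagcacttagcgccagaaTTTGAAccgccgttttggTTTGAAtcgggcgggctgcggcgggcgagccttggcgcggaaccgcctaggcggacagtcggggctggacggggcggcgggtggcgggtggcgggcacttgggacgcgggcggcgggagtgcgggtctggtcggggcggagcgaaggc
Mcm2, chr6:88898731-88899030, minus strand: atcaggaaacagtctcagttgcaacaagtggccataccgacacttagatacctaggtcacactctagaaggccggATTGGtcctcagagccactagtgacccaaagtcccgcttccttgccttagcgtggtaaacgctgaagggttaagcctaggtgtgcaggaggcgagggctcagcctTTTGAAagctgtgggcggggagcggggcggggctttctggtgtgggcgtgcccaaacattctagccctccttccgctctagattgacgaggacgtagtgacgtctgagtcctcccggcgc
Rrm1, chr7:102441445-102441744, plus strand: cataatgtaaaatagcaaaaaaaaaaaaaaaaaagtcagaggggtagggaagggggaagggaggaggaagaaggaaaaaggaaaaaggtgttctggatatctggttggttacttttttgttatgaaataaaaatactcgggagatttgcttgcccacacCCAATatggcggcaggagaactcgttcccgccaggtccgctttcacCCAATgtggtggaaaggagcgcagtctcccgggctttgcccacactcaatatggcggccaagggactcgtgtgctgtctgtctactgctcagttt

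The TTTGAA element was in 13 of 16 promoters of G2/M genes (81.2%), in 2 of 12 of replication genes (16.7%) and in 1 of 9 of G1/S regulators (11.1%), against 17.9% of all 32851 promoters. CCAAT was in 15 of 16, 9 of 12 and 4 of 9, against 37.4% of all. The 16, 12 and 9 promoters belong to 15, 11 and 7 genes. Overlapping promoters of Prc1, both with TTTGAA and CCAAT, were counted separately among the 16. The 3 E2F motifs together were in 1 of the 16 G2/M promoters, in 6 of 12 replication promoters and in 2 of 9 promoters of G1/S regulators, against 1.84% of all. All 4 called G2/M genes had both TTTGAA and CCAAT, Bub1b, which rose, included. In Aurka, Cenpa and Bub1b the TTTGAA lay just after the annotated start, at bases 33, 17 and 41 from it, and Ccnb2 had one at base 5 and another upstream. Mcm2 was 1 of the 2 replication genes with TTTGAA, beside Cdc45, and Rrm1 had CCAAT and none of the E2F motifs. A match is a string of letters in a window and no evidence that a factor was bound in these muscles.

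The 17 G2/M genes had lower values in HU muscle for 14 genes, and 3 passed the test in that direction. Aurka, the kinase Aurora A of the spindle poles, had 6.25, 6.25, 6.37 and 6.25 in HU muscle and 6.68, 6.71, 6.71 and 6.62 in WB muscle. The groups stood well apart, and Aurka fell 1.32-fold (log2 change -0.40, -0.51 to -0.29, limma adjusted p = 0.000395). Its paralog Aurkb, the kinase Aurora B of the chromosomal passenger complex, changed by -0.09 (-0.30 to 0.12).

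Ccnb2, cyclin B2, had 5.61, 5.55, 5.59 and 5.48 in HU muscle and 6.46, 6.26, 5.85 and 5.60 in WB muscle. The HU arrays were alike, whereas WB replicate 4 was as low as they were. The fall was 1.40-fold (log2 change -0.49, limma adjusted p = 0.0445). The call was lost, with an adjusted p between 0.0672 and 0.106, without any 1 HU array, WB replicate 1 or WB replicate 2, while the log2 change stayed between -0.51 and -0.35. Cenpa, the histone variant that marks centromeres, had 6.03, 6.04, 6.28 and 6.29 in HU muscle and 6.53, 6.56, 6.30 and 6.37 in WB muscle. The groups met without overlapping, with a 1.21-fold fall (log2 change -0.28, adjusted p = 0.0347) that was not called without HU replicate 1 (0.0770) or 2 (0.0940), or without WB replicate 1 (0.0869) or 2 (0.0871).

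Bub1b, the spindle checkpoint protein BubR1, went the other way. It had 5.32, 5.45, 5.58 and 5.29 in HU muscle and 5.15, 5.23, 4.90 and 5.12 in WB muscle. Every HU array was above every WB array, a 1.24-fold rise (log2 change 0.31, 0.12 to 0.50, limma adjusted p = 0.0240), not called without HU replicate 2 (0.0614), HU replicate 3 (0.0624) or WB replicate 3 (0.0502). Ccnb1, cyclin B1, changed by 0.23 (-0.02 to 0.48, adjusted p = 0.158). Bub1, a paralog of Bub1b in the same checkpoint, changed by -0.15 (-0.53 to 0.22).

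**Figure D2:**
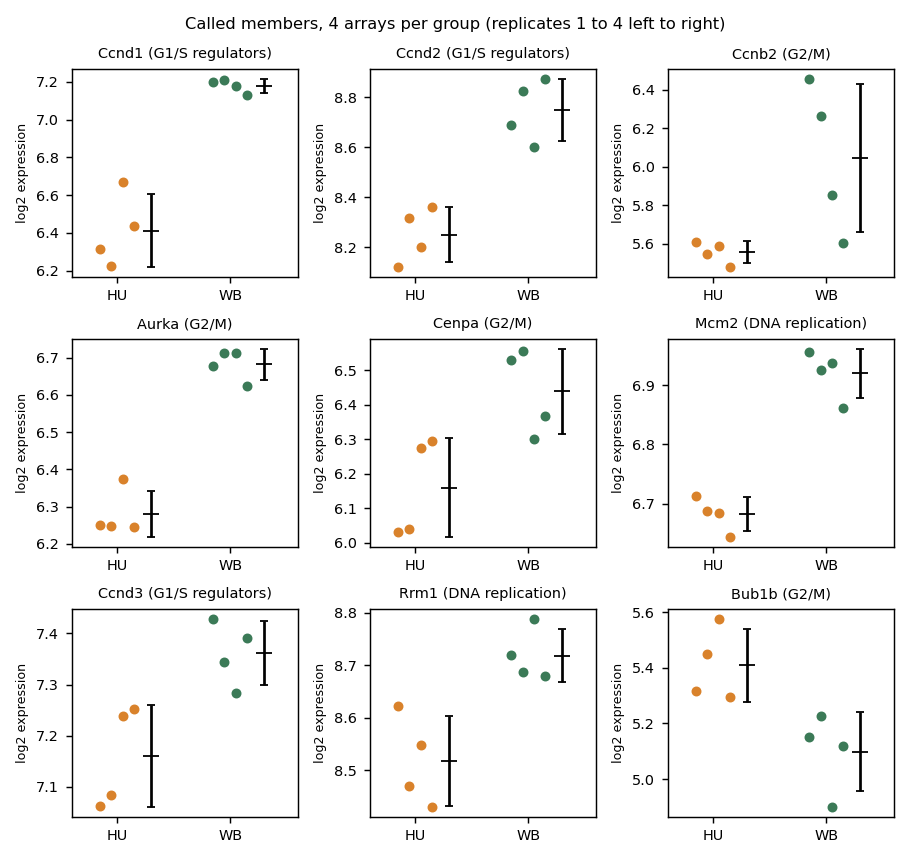
Log2 expression on each array (y axis, scaled per panel) of the 9 genes called at an adjusted p under 0.05, with HU arrays in orange on the left and WB arrays in green on the right, and the mean with its SD in black. The groups do not overlap except for Ccnb2, where WB replicate 4 (5.60) lies among the HU arrays.

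The largest G2/M change by value did not pass the test. Mki67, the proliferation marker Ki-67, had 5.01, 4.93, 5.02 and 4.81 in HU muscle and 5.69, 6.35, 5.27 and 4.95 in WB muscle. WB replicates 1 and 2 were high, while WB replicate 4 lay among the HU arrays. Its log2 change of -0.62 had an interval from -1.15 to -0.10 (limma adjusted p = 0.0830). Top2a, topoisomerase II alpha, which untangles chromosomes, had 3.79, 3.74, 3.90 and 3.70 in HU muscle and 4.21, 4.63, 3.90 and 3.81 in WB muscle. The same 2 WB arrays were high, and the log2 change was -0.35 (adjusted p = 0.117). Ccna2, cyclin A2, which acts from S phase on, changed by -0.46 (adjusted p = 0.136), Cdk1, the mitotic kinase, by -0.28 (0.0988) and Kif11, a spindle motor, by -0.35 (0.180).

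The remaining G2/M genes were not called either, with changes between -0.23 and 0.00. These were Cdc20 (-0.23) and Ube2c (-0.20), which act in the destruction of cyclin B, Prc1 (-0.21) of the central spindle, the kinase gene Plk1 (-0.20) and Birc5, survivin (0.00). Over the 17 genes 3 were lower (17.6%, against 11.0% of all probe sets), 1 was higher (5.88%, against 12.8%) and 13 were not called. The median log2 change of the 17 was -0.23. At an unadjusted p under 0.05 there were 6 lower and 1 higher, where 3262 and 4669 of all 21212 probe sets were so.

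Set side by side, the 22 G1/S and replication genes had a median log2 change of -0.02, with 5 lower and 0 higher. The 17 G2/M genes had one of -0.23, with 3 lower and 1 higher. Of all probe sets 11.0% were called lower and 12.8% higher. The medians differed by -0.21 (G2/M minus G1/S and replication), where the same difference varied between arrays of a group with an SD of 0.14. Alternatives that alter only the variance estimate, or shift all genes of an array alike, cannot move this difference. In the other alternatives that gave medians it kept its sign, between -0.10 and -0.29. No test was made of it, since the genes were chosen with earlier results known.

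Much of the G2/M difference lay in the spread of the WB arrays. The mean level over the 17 G2/M genes was 4.99, 5.05, 5.10 and 5.09 in HU replicates 1 to 4 and 5.34, 5.65, 5.13 and 5.00 in WB replicates 1 to 4. WB replicate 4 was thus within the range of the HU arrays and WB replicate 2 far above it. WB replicate 2 held the highest value of all 8 arrays in 12 of the 17 genes, and WB replicate 1 in 3. Ube2c, for instance, lay between 6.83 and 7.11 in the HU arrays and had 7.20, 8.11, 6.86 and 6.62 in the WB arrays. The SD over arrays was larger in WB than in HU muscle for 15 of the 17 G2/M genes (88.2%), for 8 of the 22 G1/S and replication genes (36.4%) and for 50.1% of all probe sets. The median SD of the G2/M genes was 0.11 in HU muscle and 0.26 in WB muscle, and that of all probe sets was 0.09 and 0.08.

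**Figure D3:**
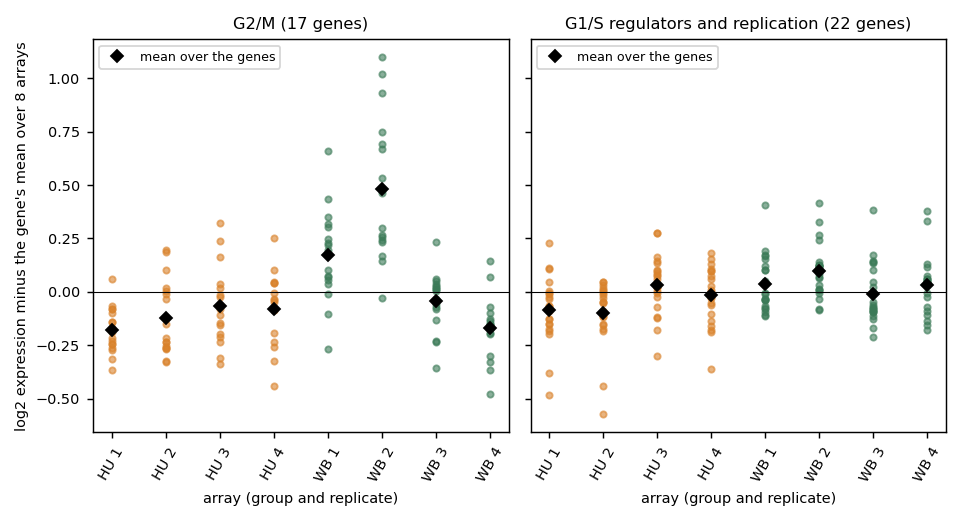
Log2 expression of each gene minus that gene's mean over all arrays (y axis), for 17 G2/M genes on the left and 22 G1/S and replication genes on the right, by array (HU orange, WB green; diamonds are means over the genes). The G2/M points of WB replicates 1 and 2 reach the highest values and those of WB replicate 4 lie as low as in HU arrays, whereas the means in the right panel stay within 0.10 of 0.

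Leaving out single arrays moved the number of G2/M calls in both directions. Without WB replicate 4, 7 G2/M genes were called lower, with Mki67 (limma adjusted p = 0.0202), Kif11 (0.0315), Cdk1 (0.0429) and Top2a (0.0473) added. Without WB replicate 2, 1 was lower, Aurka, and it was also 1 without WB replicate 1, HU replicate 1 or HU replicate 2. The median G2/M change was -0.16 without WB replicate 2 and -0.32 without WB replicate 4.

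Markers of other cells differed between the same arrays, where 11.0% of all probe sets were called lower and 12.8% higher. Of 12 macrophage markers 8 were lower in HU muscle and 0 higher, with mean levels from 6.93 to 7.23 in HU arrays and from 7.27 to 7.52 in WB arrays. Adgre1, which encodes the macrophage antigen F4/80, had a log2 change of -0.76 and Mrc1, the mannose receptor, of -0.69. Cd68, Cd163, Mpeg1 and Cx3cr1 were not called (-0.04, -0.18, -0.10 and -0.002). Of 10 fibroblast markers 7 were lower and 0 higher, with mean levels from 9.27 to 9.42 in HU arrays and from 10.17 to 10.41 in WB arrays. The type I collagen genes Col1a1 and Col1a2 changed most among them, by -2.48 and -2.02. Dcn, Pdgfra and Gsn of the same list were not called (-0.02, -0.11 and -0.11). Of 10 endothelial markers 2 were lower, Kdr and Emcn (-0.47 and -0.37), with 8.52 to 8.58 in HU arrays and 8.54 to 8.74 in WB arrays. By value 8 of the 10 had negative changes, and Pecam1 and Cldn5, not called, had positive ones (0.08 and 0.19). In each of these lists WB replicate 2 had the highest mean of the 8 arrays, and WB replicate 1 came next. At an unadjusted p under 0.05 there were also 0 higher in each of these 3 lists, where 4669 of all 21212 probe sets were. The 6 neutrophil markers averaged between 5.09 and 5.35 in HU arrays, 5.88 in WB replicate 2 and between 4.83 and 4.91 in the other WB arrays, with Csf3r called higher (0.32).

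Satellite cells, the stem cells of muscle, showed no common direction. Of their 9 markers and those of myoblasts 3 were higher (Cdh15 by 0.68, Des and Myf5) and Vcam1 was lower (-0.46). Of all probe sets 12.8% were called higher and 11.0% lower. Des averaged 12.31 over all arrays, near the median level of the fibre markers (12.84), where Pax7, not called, averaged 6.90. Des thus does not single out satellite cells. Mean levels of the list lay between 7.56 and 7.63 in HU arrays and between 7.39 and 7.59 in WB arrays. Of 9 lymphocyte markers 0 were called, and 2 were higher and 0 lower at an unadjusted p under 0.05, with mean levels from 4.55 to 4.68 in HU arrays and from 4.49 to 4.61 in WB arrays. Of the 4 measured erythroid markers 0 were called, with 1 higher and 0 lower at an unadjusted p under 0.05. At that threshold 4669 of all 21212 probe sets were higher and 3262 lower. The part of any of these cells in the changes of the cell cycle genes was not tested.

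Around the 39 genes, 146 further genes, of the cycle or of the cyclin and kinase families, were measured in 7 lists. Of 9 inhibitors of cyclin-dependent kinases and pocket proteins 2 were higher and 0 lower, where 12.8% of all probe sets were called higher. At an unadjusted p under 0.05 it was 3 and 0, where 4669 of all 21212 probe sets were higher. Rb1, the retinoblastoma protein that holds E2F factors in check, had 9.35, 9.16, 9.21 and 9.06 in HU muscle and 8.79, 8.74, 8.64 and 8.79 in WB muscle. It rose 1.37-fold with no overlap (limma adjusted p = 0.00109). Its relative Rbl2, the p130 subunit of DREAM, rose 1.29-fold (0.00801, and 0.0549 by the stand-in for the methods' test). Cdkn1a, the inhibitor p21, had between 9.26 and 9.90 in HU muscle and between 8.67 and 9.67 in WB muscle. Both groups spread widely and overlapped, with a log2 change of 0.38 (adjusted p = 0.233).

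Among 15 other E2F, DREAM, B-Myb and FoxM1 genes 3 were higher and 3 lower, where 12.8% and 11.0% of all probe sets were called so. Tfdp2, a dimer partner of E2F factors, had 10.15, 9.90, 10.10 and 9.93 in HU muscle and 9.35, 9.34, 9.36 and 9.11 in WB muscle, a 1.66-fold rise (limma adjusted p = 0.000183). E2f6, a repressor, fell 1.21-fold (0.00933, and 0.0659 by the stand-in for the methods' test). E2f3, an activator, fell 1.26-fold (0.0213) and was not called without HU replicate 2 or 4 (0.0577 each) or without WB replicate 1 (0.0508), 2 (0.0523) or 3 (0.0544).

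Replication enzymes outside the 39 genes included larger rises. Of 38 genes of origins and forks 9 were higher and 4 lower, with a median log2 change of 0.09. Of all probe sets 12.8% were called higher and 11.0% lower. Pole, the catalytic subunit of polymerase epsilon of the leading strand, had 6.32, 6.33, 6.57 and 6.25 in HU muscle and 5.53, 5.56, 5.81 and 5.75 in WB muscle. It was 1.63-fold higher (limma adjusted p = 0.000380). Pold2, a subunit of polymerase delta, which also acts in repair, rose 1.53-fold (2.4e-05) and Rpa1, which coats single-stranded DNA in replication and repair, 1.26-fold (0.00206). Rpa3, of the same complex as Rpa1, fell 1.34-fold (0.0217), though not without HU replicate 2 (0.0577) or 4 (0.0552) or WB replicate 1 (0.0530) or 2 (0.0559).

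Of 9 other genes of nucleotide supply 3 were lower and 0 higher (4 and 0 at an unadjusted p under 0.05). Among all probe sets 11.0% were called lower, and 3262 of 21212 were lower at the unadjusted threshold. Dctd, deoxycytidylate deaminase, which feeds thymidylate synthesis, had 6.38, 6.20, 6.31 and 6.48 in HU muscle and 7.07, 6.90, 7.48 and 7.23 in WB muscle. At 1.77-fold lower (limma adjusted p = 0.000698) it changed more than any of the 39 genes. Shmt1, which supplies one-carbon units for thymidylate, fell 1.19-fold (0.00867).

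Other mitotic genes were hardly called. Of 39 measured, 1 was higher (Spc24, of the kinetochore, 1.21-fold, limma adjusted p = 0.0159) and 0 were lower. Of all probe sets 12.8% were called higher and 11.0% lower. At an unadjusted p under 0.05, 1 of the 39 was higher and 3 lower, against 4669 and 3262 of all 21212 probe sets. The median log2 change of the 39 was -0.02. The mean level over these 39 genes lay between 5.02 and 5.09 in HU arrays and was 5.11, 5.15, 4.99 and 4.98 in WB replicates 1 to 4, so that the same 2 WB arrays were highest. Of the 39, 16 had a mean above the 95th percentile of the olfactory and vomeronasal receptors. Of 13 subunits and activators of the anaphase promoting complex, which ends mitosis, Cdc16 fell 1.36-fold (0.000238) and Anapc4 and Anapc5 were higher by 1.10-fold each (0.0459 each). These last 2 were near the threshold: Anapc4 was not called whichever array was left out (0.0576 to 0.118), and Anapc5 was called only without HU replicate 4 (0.0458).

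Other cyclins and cyclin-dependent kinases moved both ways, 6 higher and 4 lower of 23, where 12.8% and 11.0% of all probe sets were called so. Ccni, cyclin I, rose 1.43-fold (limma adjusted p = 9.2e-05), Ccng2, cyclin G2, which goes with growth arrest, 1.37-fold (0.00295) and Ccnl2, a cyclin of splicing, 1.27-fold (0.00308), while Cdk14 fell 1.31-fold (0.00705).

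**Figure D4:**
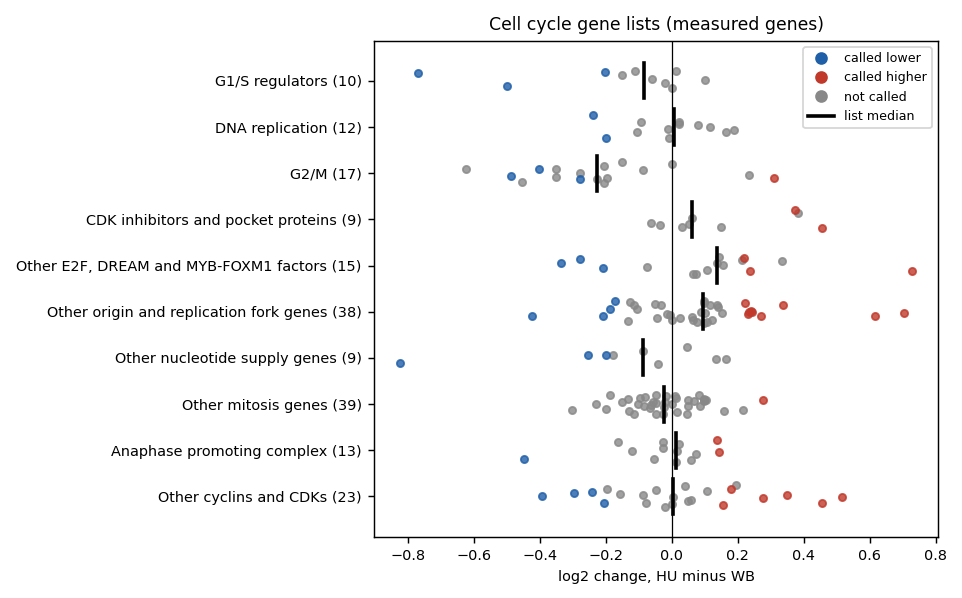
Log2 change (HU minus WB, x axis) of every measured gene in 10 lists of genes of the cell cycle or of the cyclin and kinase families. Each gene is 1 point with a random vertical offset, and a black bar marks each list's median. Numbers in brackets are measured genes. The G2/M genes have the lowest median (-0.23), and the highest single changes are those of Tfdp2 (0.73) among the E2F factors and Pole (0.71) among the fork genes.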

How the data were processed

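Muscle RNA of 8 mice was hybridised by the authors to Affymetrix Mouse Gene 1.0 ST arrays, 1 sample each, and the deposited log2 values per probe set came from robust multi-array analysis (RMA) with a Brainarray custom definition (version, release and build not given in the sources used here). RMA makes the arrays' distributions alike, so a shift of all genes cannot be seen, and 8 arrays limit the precision. All 8 columns were used, 0 were left out, no 2 arrays were identical, and nothing was scaled or filtered again. Of 21212 probe sets 20656 were named through the Entrez ID in RefSeq (GRCm38.p6), and each member had 1 probe set. The HU-WB difference was fitted in limma 3.58.1 under R 4.3.3 by lmFit, then eBayes. Tests were two-sided, p-values were adjusted by Benjamini-Hochberg across every probe set, and calls were made at an adjusted p under 0.05. Python 3.11.15 with pandas 2.3.3, numpy 2.4.6, scipy 1.17.1 and matplotlib 3.10.9 did the rest. Lists got counts and medians only.

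Members and lists were chosen with earlier results of these data known. Every member is accounted for. Members called and the D-type cyclins, E2f1, Mki67 and Top2a are given on all 8 arrays (Ube2c on 4 arrays, Rb1, Tfdp2, Pole and Dctd on 8, chosen after their values were seen). Of every other cycle list up to 4 called genes with the largest change could be named, and of each marker list up to 2. Cdkn1a, Des, Myf5, Pax7 and the macrophage, fibroblast and endothelial markers that were not called were named after their values were seen. Alternatives were a t-test with unequal variances, standing in for that of the methods, and one with equal variances. Further ones were an intensity trend with robust variance, array weights, quantile normalization, centred medians, no dimmest 25% or 50% and a minimum of 1.2-fold. A block for replicate numbers, leave-one-out fits of every array, and smaller member sets were also run.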

Additional observations from a re-analysis of the deposited data

Results flagged for a closer look

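One array stood apart from the other 3 of its group by Dixon's ratio of gap to range (95% level) in 8 of the 144 groups of 4 arrays examined, where chance alone gives about 1 in 20 groups. Mcm5 was highest in WB replicate 2 (6.07, the other WB arrays between 5.74 and 5.75), Mcm7 in HU replicate 3 (7.22, the others between 6.95 and 7.00) and Aurka in HU replicate 3 (6.37, the others between 6.25 and 6.25). Aurka was called lower without HU replicate 3 as well. Among the other genes named, Tfdp2 was lowest in WB replicate 4 (9.11, the others from 9.34), Anapc4 in WB replicate 1 (8.63, the others from 8.69), Anapc5 in HU replicate 4 (11.26, the others from 11.35) and in WB replicate 2 (11.13, the others from 11.20), and Csf3r in WB replicate 4 (5.40, the others from 5.53).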

How the results depend on the processing

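Ccnd1, Ccnd2 and Aurka were called lower in each of the 18 alternatives run, with adjusted p between 4.6e-05 and 0.0355, and Mcm2 in each but the minimum of 1.2-fold. The replicate numbers did not pair the arrays: deviations of arrays with the same number correlated with r of 0.02, 0.04, 0.12 and 0.10. With the replicate block 6 members were lower and 0 higher (G2/M 2 lower and 0 higher), Ccnd3 (0.0641), Cenpa (0.0793) and Bub1b (0.0505) were lost, and Cdkn1a was called higher (0.0194). All probe sets gave 2455 higher and 2213 lower with that block.

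The t-test with unequal variances called 4 members lower and 0 higher (G1/S and replication 3 lower, G2/M 1 lower and 0 higher). Of all probe sets it called 1393 higher and 1374 lower. Of the other genes named it lost Rbl2 (0.0549), E2f6 (0.0659), E2f3 (0.0871), Rpa3 (0.0966), Spc24 (0.0593), Cdk14 (0.0512), Vcam1 (0.133) and Csf3r (0.0875). The t-test with equal variances called 5 members lower and 0 higher (G2/M 1 and 0). A minimum of 1.2-fold left 5 members lower (G1/S and replication 2) and 1244 probe sets higher. Quantile normalization gave 2 members higher, with Mcm7 (0.0389) added, and added Cdk1 (0.0319) to the lower. It made 1 G1/S and replication gene higher and moved the median change of these genes to -0.068. Without the dimmest 50% of probe sets 11 members remained, with 1 G1/S and replication gene higher (Mcm7), 1 G2/M gene lower and 0 higher, and a G1/S and replication median of -0.20. The cause of these shifts was not tested beyond the smaller set of genes in the last.

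With 1 array left out, members lower ranged from 4 to 11 and higher from 0 to 2, G1/S and replication genes lower from 3 to 5 and higher from 0 to 1, G2/M genes lower from 1 to 7 and higher from 0 to 1, and all probe sets higher from 1802 to 2852 and lower from 1833 to 2206. The 1802 was without HU replicate 3. Some members that were not called changed sign. Birc5 was -0.00436 with centred medians, -0.00496 with array weights and -0.074 after quantile normalization, Mcm5 0.00199 with array weights, Cdk2 -0.00486 with centred medians and -0.000754 after quantile normalization, and after the latter Ccne1 was -0.062, Cdc6 -0.051 and Mcm6 -0.028. With 1 array left out the ranges were -0.057 to 0.057 for Birc5, -0.25 to 0.052 for Bub1, -0.013 to 0.031 for Ccne1, -0.032 to 0.073 for Cdc6, -0.051 to 0.042 for Cdk2, -0.11 to 0.045 for Mcm3, -0.053 to 0.072 for Mcm5, -0.028 to 0.081 for Mcm6 and -0.40 to 0.10 for Ube2c. No member had several probe sets, so averaging them was not run.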
